A study of Homo sapiens with 8 samples.

Results

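The nuclear-encoded respiratory chain subunits are 78 of the 56638 gene symbols in the deposited counts. They were selected on their names, which begin with NDUFA, NDUFB, NDUFC, NDUFS, NDUFV, SDH, UQCR, COX4 to COX8 or ATP5, and on a floor of 10 counts in each of the 8 libraries. Pseudogene and antisense names numbered 91 and were left out, which left 86 names, of which 78 passed the floor. By the complex they were assigned to, 36 were in complex I, 4 in complex II, 8 in complex III, 13 in complex IV and 17 in complex V. NDUFA4 was placed in complex IV, where it is now counted. The name rule also took in 3 genes that encode no structural subunit, COX7A2L, ATP5S and ATP5SL. COX7A2L was counted with complex IV. ATP5S and ATP5SL were counted with complex V by their names, although ATP5SL encodes an assembly factor of complex I.

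The cells were SCC25, an established line of human squamous cell carcinoma of the tongue, and RNA-seq was used to ask how its transcripts respond to loss of ETS1, a transcription factor of the ETS family. ETS1 siRNA denotes cells transfected for a short time with a pool of siRNAs against ETS1, and siRNA control denotes cells given a non-targeting siRNA. shETS1 denotes cells infected with a lentivirus that stably expresses a hairpin against ETS1, and shCON denotes cells with a non-targeting hairpin. Both shRNA groups were selected with puromycin, and the labels name 1 hairpin construct for shETS1, so that effects of that hairpin and of ETS1 loss cannot be told apart. All groups grew in DMEM/F12 with serum and hydrocortisone and hold 2 replicates each. The study describes the siRNA replicates as biological. No source used here says that the shRNA replicates came from separate cultures, and p-values then measure only the spread between these samples.

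The respiratory chain of the inner mitochondrial membrane passes electrons from NADH (complex I) and from succinate (complex II) through complex III to oxygen at complex IV. Complexes I, III and IV pump protons, and complex V, the ATP synthase, uses their return to make ATP. Most subunits are encoded in the nucleus and imported, and a few hydrophobic core subunits of every complex but complex II are encoded by mitochondrial DNA, so that the complexes need products of both genomes. Nuclear genes of the chain are known to share promoter sites for ETS-family factors such as GABP and for NRF1 and YY1.

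Promoter sequences of 64 of the 78 members were found in a RefSeq table of build GRCh38.p14, each running from 250 bases before the start of the gene to 50 after it. They were searched on both strands for CCGGAAG, the core of ETS-family sites, for CGCATGCG, the core of NRF1 sites, which reads the same on both strands, and for AAGATGGCG, a YY1 site. The 6 promoters here are shown because their genes moved after shRNA and between them carry each of the 3 motifs, and UQCR11 and COX5B, which moved in opposite directions, both hold 2 matches to the ETS letters and none to the others. Capitals mark the matches, none of which overlap each other, and a match on the other strand is seen as its reverse complement, CTTCCGG for CCGGAAG.
NDUFS7 (complex I, fell after shRNA, NRF1 and YY1 letters; chr19:1383657-1383956, plus strand): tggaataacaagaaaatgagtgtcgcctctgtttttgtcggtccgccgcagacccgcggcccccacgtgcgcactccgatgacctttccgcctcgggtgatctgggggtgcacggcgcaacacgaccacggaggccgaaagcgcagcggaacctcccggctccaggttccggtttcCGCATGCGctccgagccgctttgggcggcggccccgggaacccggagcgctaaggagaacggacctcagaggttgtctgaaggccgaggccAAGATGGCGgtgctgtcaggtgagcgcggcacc
SDHD (complex II, rose, NRF1 and ETS letters; chr11:112086623-112086922, plus strand): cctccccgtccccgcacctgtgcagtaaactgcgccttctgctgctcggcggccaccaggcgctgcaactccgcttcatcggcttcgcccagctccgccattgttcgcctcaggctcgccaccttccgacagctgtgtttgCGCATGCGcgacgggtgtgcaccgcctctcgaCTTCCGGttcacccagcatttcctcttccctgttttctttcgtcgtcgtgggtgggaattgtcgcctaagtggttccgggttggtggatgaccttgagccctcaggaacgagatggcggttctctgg
UQCR11 (complex III, fell, ETS letters on both strands; chr19:1605413-1605712, minus strand): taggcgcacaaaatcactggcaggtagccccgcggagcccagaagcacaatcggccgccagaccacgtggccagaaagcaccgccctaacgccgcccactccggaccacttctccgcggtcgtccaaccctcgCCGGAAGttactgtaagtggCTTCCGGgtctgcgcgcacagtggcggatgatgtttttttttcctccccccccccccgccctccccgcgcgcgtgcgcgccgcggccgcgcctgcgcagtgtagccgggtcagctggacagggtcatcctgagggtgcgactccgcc
COX5B (complex IV, rose, ETS letters; chr2:97645812-97646111, plus strand): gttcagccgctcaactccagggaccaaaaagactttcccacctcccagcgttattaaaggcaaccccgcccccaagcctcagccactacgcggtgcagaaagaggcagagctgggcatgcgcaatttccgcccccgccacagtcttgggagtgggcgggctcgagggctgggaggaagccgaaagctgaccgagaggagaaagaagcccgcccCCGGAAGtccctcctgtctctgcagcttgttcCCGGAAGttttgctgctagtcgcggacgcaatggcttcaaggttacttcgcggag
COX7C (complex IV, rose, no match; chr5:86617691-86617990, plus strand): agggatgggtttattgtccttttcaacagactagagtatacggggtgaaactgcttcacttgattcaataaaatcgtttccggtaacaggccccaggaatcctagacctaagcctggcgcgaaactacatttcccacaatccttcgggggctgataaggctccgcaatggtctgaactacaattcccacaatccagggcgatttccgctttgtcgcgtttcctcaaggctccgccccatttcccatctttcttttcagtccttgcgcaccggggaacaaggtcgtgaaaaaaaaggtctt
ATP5J (complex V, fell, all 3 motifs; chr21:25735005-25735304, minus strand): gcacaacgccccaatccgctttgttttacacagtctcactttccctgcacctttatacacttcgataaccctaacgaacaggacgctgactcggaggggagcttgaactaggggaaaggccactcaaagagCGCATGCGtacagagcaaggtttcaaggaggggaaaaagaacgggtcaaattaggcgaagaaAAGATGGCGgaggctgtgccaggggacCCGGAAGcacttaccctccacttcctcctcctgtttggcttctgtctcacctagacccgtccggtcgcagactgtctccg

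CCGGAAG was found in 19 of the 64 member promoters (29.7%), against 10.3% of the 35116 promoters of the table. Those 35116 were not filtered for expression or gene type, whereas the members had passed the count floor, so the sets are unlike. CGCATGCG was found in 10 (15.6%, against 2.02%) and AAGATGGCG in 8 (12.5%, against 1.75%), while 34 members held none of the 3 and 6 held more than 1 of them. Of the 38 members with a promoter that were called higher after shRNA, 12 held CCGGAAG, as did 2 of the 8 called lower and 5 of the 18 not called. CGCATGCG was found in 4 of the 38, in 4 of the 8 and in 2 of the 18, and AAGATGGCG in 3, 2 and 3. The median log2 fold change after shRNA was 0.27 for the 19 members with CCGGAAG and 0.20 for the 45 without it. For CGCATGCG it was 0.06 in the 10 members with it and 0.25 in the 54 without, and for AAGATGGCG 0.10 in 8 and 0.24 in 56. The corresponding medians after siRNA were 0.24 and 0.23 for CCGGAAG, 0.22 and 0.23 for CGCATGCG, and 0.33 and 0.22 for AAGATGGCG. These matches describe letters in a window of fixed length and were not tested for binding. The study mapped ETS1 binding sites in SCC25 cells by chromatin immunoprecipitation with sequencing. Those sites were not compared with the promoters here.

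Total counts per library ranged from 15954616 to 25953213, and the members took 0.828 to 0.998% of the counts in the siRNA libraries and 1.06 to 1.17% in the shRNA libraries. ETS1 itself was measured at 288 and 248 CPM (counts divided by the TMM-scaled total, set separately in each knockdown's table) in siRNA control and at 17.4 and 13.2 CPM in ETS1 siRNA. In the stable lines it was at 82.3 and 72.1 CPM in shCON and at 9.76 and 11.1 CPM in shETS1. ETS1 fell by 4.13 on the log2 scale (SE 0.19, edgeR adjusted p = 0.000173) after siRNA and by 2.89 (SE 0.10, adjusted p = 3.82e-13) after shRNA. Markers of squamous keratinocytes were high in every library, at a summed 14659 to 26067 CPM for 7 genes. Immune markers summed to at most 0.523 CPM and endothelial markers to at most 0.756 CPM, with PECAM1 at 0 in all 8 libraries. The simple epithelial markers EPCAM and CDH1 summed to 265 to 448 CPM. Fibroblast markers summed to 22.1 to 2037 CPM and were highest in shETS1.

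Levels of the members were compared within a group as CPM per kilobase of transcript. Lengths are those of the annotation, such as 8459 bases for UQCRB and 537 for UQCRH. Which transcripts these cells used was not determined, so the ranking depends on the annotated lengths. The median member stood at 89.6 CPM per kilobase in siRNA control, 102 in ETS1 siRNA, 120 in shCON and 126 in shETS1. ATP5B, the catalytic beta subunit of ATP synthase, was the highest member of complex V, with means of 588 and 564 CPM per kilobase in siRNA control and ETS1 siRNA and 488 and 431 in shCON and shETS1. Its level was the highest of all members in both siRNA groups, and UQCRH, a small acidic subunit of complex III, took that place in shCON (512) and shETS1 (618). The highest members of the other complexes were NDUFS5 in complex I (384 CPM per kilobase in siRNA control), SDHB in complex II (139) and COX8A in complex IV (311). COX6B2, the testis isoform of subunit 6B, was the lowest member in each group, at 0.49 to 1.57 CPM per kilobase.

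Close to the floor of 10 counts, the members with the fewest counts in their poorest library were COX6B2 (17), NDUFV2 (19), NDUFA13 (57) and NDUFC2 (119). Their counts in the richest library were 77, 139, 1133 and 710, in the same order. ATP5L2, a copy of the gene for subunit g, lay just outside with 1 to 9 counts, and COX7A1, the muscle isoform of subunit 7A, had 0 to 8. COX8C reached 6 counts, and COX6A2, ATP5J2LP and ATP5J2-PTCD1 reached 1 or 2. COX4I2 and COX7B2, both tissue-restricted isoforms, had no count in any library. The line thus showed the common isoforms of subunits 4, 6A, 7A, 7B and 8 above the floor and the lung, muscle and testis isoforms below it, with COX6B2 as the exception.

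After siRNA, no member passed the threshold of an adjusted p under 0.1, yet most fold changes lay above 0. Of the 78 members, 67 lay above 0 and 11 below, against 50.2% above 0 among all genes tested. The median log2 fold change of the members was 0.21, against 0.002 over the 14742 genes tested. Leaving out replicate 1 of ETS1 siRNA moved it to 0.33, and leaving out replicate 2 of that group to 0.11, with medians of -0.003 and -0.004 over all genes. No member was called by edgeR, where 3.41% of all genes were, while 15 members reached an unadjusted p under 0.05, as did 18.5% of all genes, and DESeq2 called 4 (5.13%, against 5.41% of all genes). The 2 libraries of ETS1 siRNA lay above both control libraries for 41 members and below both for 3, against 25.7% and 26.2% of all genes. Without ETS1 siRNA replicate 1, 11 members were called (14.1%, against 9.61% of all genes), all of them higher, where 3.17% of all genes were higher and 6.44% lower. With no filter on low counts 4 were called (5.13%, against 5.32%), 3 of them higher.

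By complex, the median log2 fold change after siRNA was 0.25 in complex I, 0.10 in complex II, 0.18 in complex III, 0.23 in complex IV and 0.18 in complex V. Without ETS1 siRNA replicate 2 these medians were 0.17, 0.01, 0.10, 0.15 and 0.04, and without replicate 1 of that group they were 0.36, 0.16, 0.30, 0.31 and 0.31, in the same order. With length offsets, which remove the trend of each library on transcript length, they were 0.15, 0.007, 0.19, 0.13 and 0.06. In complex I 32 of 36 members lay above 0, in complex III 8 of 8, in complex IV 11 of 13 and in complex V 13 of 17. NDUFB7, an accessory subunit of complex I with the largest fold change above 0, was at 45 and 54.4 CPM in siRNA control and at 69.5 and 71.0 CPM in ETS1 siRNA. The groups did not overlap, and the difference was 0.50 (SE 0.13, adjusted p = 0.116). NDUFS1, the largest iron-sulfur subunit of complex I, had the lowest fold change of that complex, at 111 and 113 CPM against 104 and 96.6 CPM, a difference of -0.15 (SE 0.13, adjusted p = 0.558). UQCR10, a small subunit of complex III, went from 65.2 and 78.3 CPM to 94.5 and 102 CPM, with a difference of 0.46 (SE 0.14, adjusted p = 0.157). UQCRC2, a core protein of the same complex, had a difference of 0.03.

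COX7A2 (chr6:75947391-75960039, minus strand, GRCh37), the common isoform of subunit 7A of complex IV, had the lowest value of all members after siRNA. It stood at 115 and 134 CPM in siRNA control and at 89.0 and 89.1 CPM in ETS1 siRNA, both below both controls. The difference was -0.49 (SE 0.14, adjusted p = 0.130), and COX7A2 was called lower by DESeq2 and with length offsets. COX6B1, the common isoform of subunit 6B, had the highest value of complex IV, 0.37 (SE 0.14, adjusted p = 0.220), with 106 and 125 CPM against 147 and 151 CPM. ATP5D (chr19:1241745-1244824, plus strand, GRCh37), the delta subunit in the central stalk of ATP synthase, was at 30.6 and 38.5 CPM in siRNA control and at 49.2 and 47.8 CPM in ETS1 siRNA, a difference of 0.49 (SE 0.14, adjusted p = 0.138). ATP5B had the lowest fold change of complex V, -0.06.

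**Figure D1:**
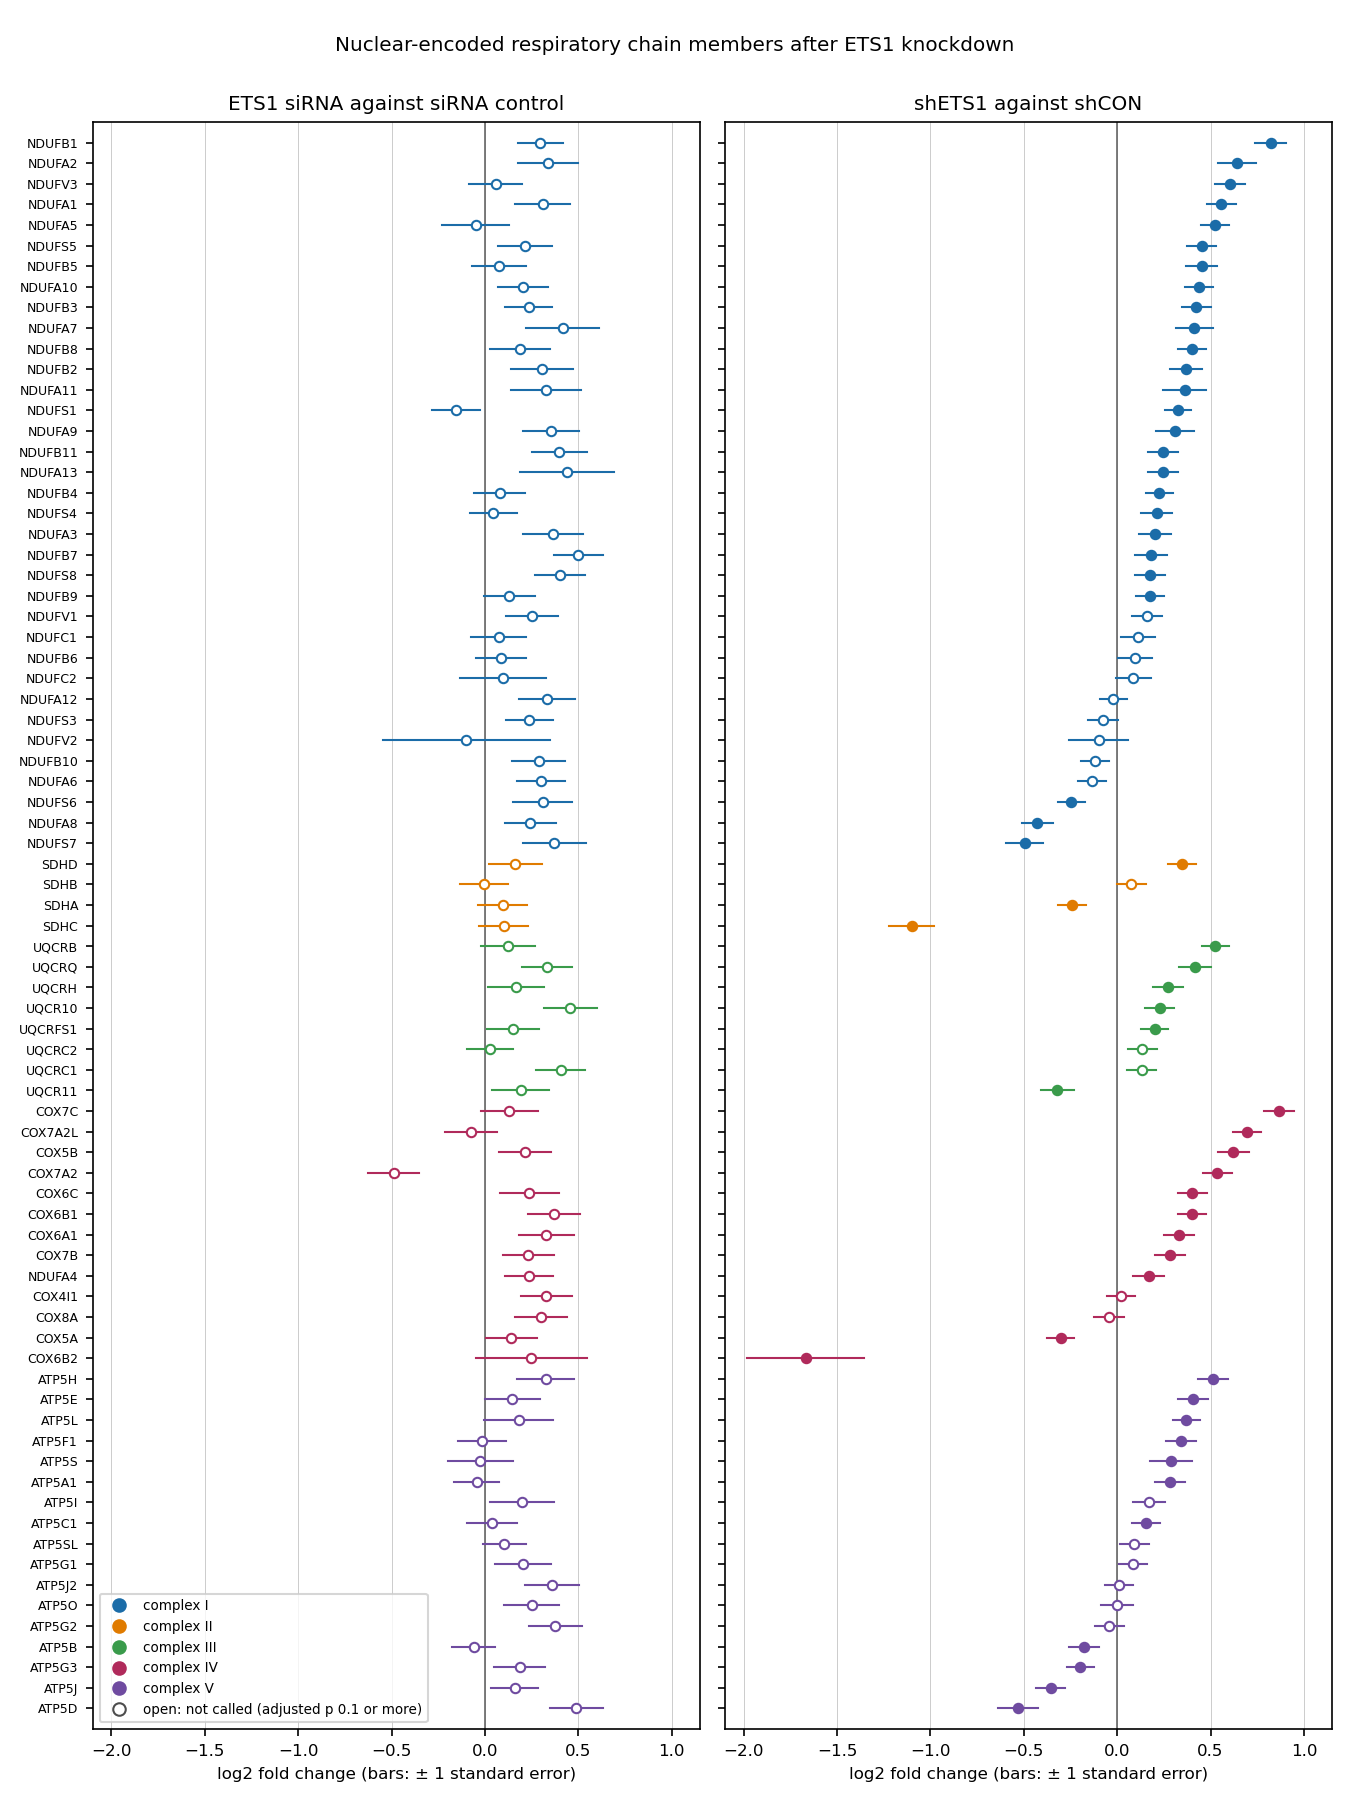
Log2 fold change of 77 of the members (vertical axis, ordered within complexes I to V) after ETS1 siRNA and in shETS1, each against its own control, with bars of 1 standard error and filled points for members called at an adjusted p under 0.1. No point is filled after siRNA, with 67 of 77 above 0, and 57 are filled after shRNA, 45 above 0 and 12 below, with COX6B2 at -1.67 and SDHC at -1.10 the lowest.

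In the stable knockdown most members changed, and more rose than fell. Of the 78 members, 45 rose, 13 fell and 20 were not called, so that 74.4% were called. Of all 16481 genes tested 60.6% were called, 29.7% higher and 30.9% lower. The same shares of all genes apply to the counts for each complex and list given below for this fit. The median log2 fold change of the members was 0.20, against 0.0007 over all genes, and the shETS1 libraries lay above both shCON libraries for 50 members and below both for 16, against 38.1% and 38.6% of all genes. With library size as the only scaling, 29 members were called higher and 19 lower (22.0 and 38.0% of all genes), and the median of the members was 0.08 while that of all genes was -0.12, a shift of all genes that TMM scaling takes out.

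In complex I, 23 of 36 members rose and 4 fell. The rises were mostly of accessory subunits, which surround the catalytic core and serve its assembly and stability. Of the 29 accessory subunits 21 rose and 2 fell (72.4 and 6.9%), with a median of 0.25. Of the 7 nuclear-encoded core subunits 2 rose and 2 fell, with a median of -0.08. That is 28.6% each way, near the 29.7 and 30.9% of all genes. The median of the core subunits turned to 0.009 without shCON replicate 2 and was -0.20 with library size as the only scaling, and the number of them called higher was 1 to 3 over the alternatives. The accessory subunit NDUFB1 (chr14:92582466-92588261, minus strand, GRCh37) showed the largest rise, from 54.0 and 62.7 CPM in shCON to 105 and 101 CPM in shETS1. The groups stood far apart, with 0.82 between them on the log2 scale (SE 0.08, adjusted p = 2.05e-07). NDUFA2 (0.64), NDUFV3 (0.60), NDUFA1 (0.56) and NDUFA5 (0.52), all accessory subunits, followed.

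NDUFS7, a core subunit with the iron-sulfur cluster that hands electrons to ubiquinone and whose promoter holds the NRF1 and YY1 letters, showed the largest fall of complex I. It was at 22.7 and 23.1 CPM in shCON and at 16.3 and 16.2 CPM in shETS1, so that replicates differed by far less than the groups. It fell by 0.50 (SE 0.10, adjusted p = 0.000365). The accessory subunits NDUFA8 (-0.43) and NDUFS6 (-0.25) also fell. Among the core subunits, NDUFS1 rose by 0.33 and NDUFS8 by 0.18.

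Of the 4 subunits of complex II, which also works in the citric acid cycle, 1 rose, 2 fell and 1 was not called. SDHC, a membrane anchor (chr1:161284171-161332996 on GRCh37, plus strand), was at 60.9 and 59.5 CPM in shCON and at 22.8 and 33.2 CPM in shETS1, and it fell by 1.10 (SE 0.12, adjusted p = 5.93e-07). SDHD, the other membrane anchor, was at 204 and 221 CPM in shCON and at 281 and 260 CPM in shETS1, and it rose by 0.35 (SE 0.08, adjusted p = 0.000929). The groups did not overlap for either anchor. SDHA, the flavoprotein that oxidises succinate, was at 181 and 175 CPM in shCON and at 157 and 145 CPM in shETS1, and it fell by 0.24 (SE 0.07, adjusted p = 0.00993). SDHB, the iron-sulfur subunit, had overlapping groups and a difference of 0.08 (SE 0.08, adjusted p = 0.422). After siRNA the 4 subunits had differences of 0.10 (SDHC), 0.16 (SDHD), 0.09 (SDHA) and -0.01 (SDHB), with adjusted p of 0.575 to 0.984 and SDHC at 164 and 170 CPM against 168 and 190 CPM.

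In complex III 5 of 8 members rose and 1 fell. UQCRB, a small subunit next to the ubiquinone site, rose the most, from 224 and 234 CPM in shCON to 331 and 327 CPM in shETS1 (0.52, SE 0.07, adjusted p = 1.01e-05). UQCRQ (0.41), UQCRH (0.27), UQCR10 (0.23) and the Rieske iron-sulfur protein UQCRFS1 (0.20) rose less. UQCR11, a small subunit with ETS letters on both strands of its promoter, fell from 50.2 and 59.2 CPM to 44.2 and 43.4 CPM, a change of -0.32 (SE 0.09, adjusted p = 0.00522). The groups of UQCR11 did not overlap, although the shCON libraries differed more from each other than those of shETS1. Both core proteins, UQCRC1 and UQCRC2, had a difference of 0.13 and were not called.

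In complex IV 9 of 13 members rose and 2 fell, with a median of 0.33. With length and GC offsets the median was 0.15, below the 0.24 of complex I in that fit. COX7C, a small subunit whose promoter held none of the 3 motifs, showed the largest rise of all members. It was at 138 and 155 CPM in shCON and at 275 and 259 CPM in shETS1 (0.87, SE 0.08, adjusted p = 6.03e-08). Its exons overlap the small RNA gene MIR3607 over 63 bases on the same strand. COX7A2L, a supercomplex factor related to subunit 7A, rose by 0.70, COX5B by 0.62 and COX7A2 by 0.54, from 137 and 152 CPM to 219 and 200 CPM. COX5A fell by 0.30.

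The 2 genes of subunit 6B went in opposite directions. COX6B1, the common isoform, rose from 184 and 199 CPM to 259 and 246 CPM (0.40, SE 0.07, adjusted p = 0.000217). COX6B2, the testis isoform (chr19:55860674-55866087, minus strand, GRCh37), was a low-count member, at 3.06 and 1.85 CPM in shCON and at 0.741 and 0.793 CPM in shETS1, and fell by 1.67 (SE 0.31, adjusted p = 0.000225). The shCON libraries of COX6B2 differed widely from each other, and both lay above both shETS1 libraries.

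**Figure D2:**
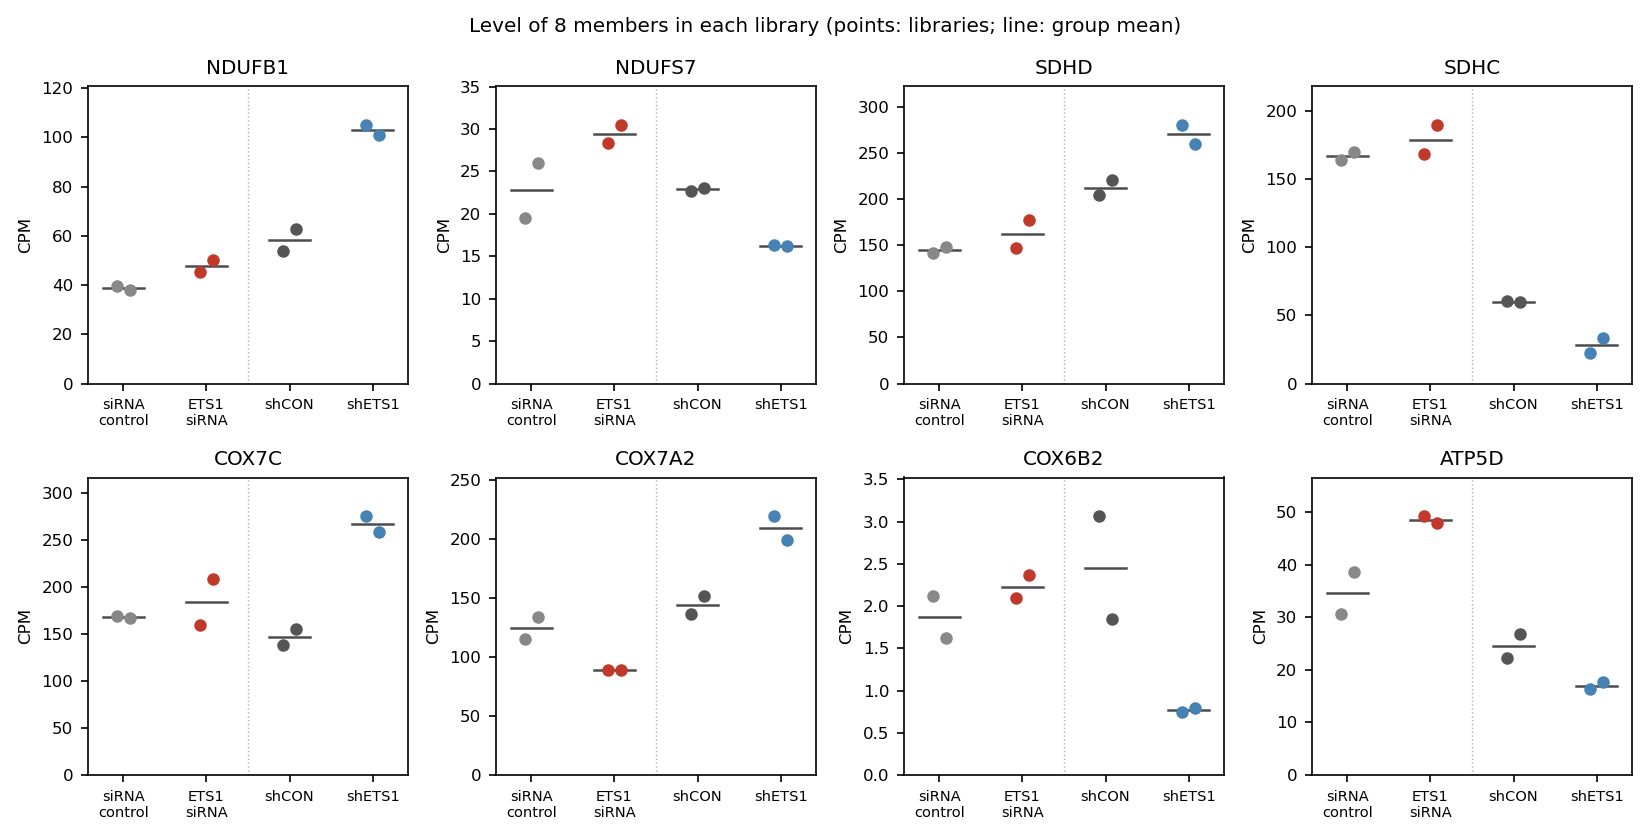
CPM (vertical axes, from 0) of 8 members in each library of the 4 groups, with points for libraries and lines for group means. SDHC lay at 22.8 and 33.2 CPM in shETS1 against 60.9 and 59.5 CPM in shCON, COX7C at 275 and 259 against 138 and 155, and COX7A2 below its control in ETS1 siRNA but above it in shETS1.

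Complex V gave 7 of 17 members called higher, 4 called lower and a median of 0.09, which was -0.03 with library size as the only scaling. The 17 include ATP5S, called higher, and ATP5SL, neither of which encodes a structural subunit. The median of 0.09 is the value of ATP5SL itself. ATP5H, subunit d of the peripheral stalk, rose the most, from 178 and 203 CPM to 277 and 267 CPM (0.51, SE 0.08, adjusted p = 2.83e-05). Its exons overlap those of KCTD2 over 340 bases and of RN7SL573P over 273 bases, both on the opposite strand. Whether their reads were counted for ATP5H is not known. ATP5E (0.41), ATP5L (0.37), ATP5F1 (0.34), ATP5S (0.29), the alpha subunit ATP5A1 (0.28) and the gamma subunit ATP5C1 (0.15) rose as well, although ATP5C1 changed sign once trends on transcript length and GC content were removed. ATP5D fell from 22.3 and 26.8 CPM to 16.3 and 17.6 CPM (-0.53, SE 0.11, adjusted p = 0.000507). Within the catalytic head and its stalk, then, alpha, gamma and epsilon (ATP5E) rose while beta (ATP5B, -0.18) and delta (ATP5D) fell.

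ATP5J, subunit F6 of the peripheral stalk and the member whose promoter held all 3 motifs, was at 74.7 and 75.1 CPM in shCON and at 56.0 and 61.0 CPM in shETS1. It fell by 0.36 (SE 0.08, adjusted p = 0.000774). Its exons overlap those of GABPA on the opposite strand over 692 bases, and since no source used here says whether counting used strand, reads of the pair cannot be told apart. GABPA, the DNA-binding subunit of the ETS-family factor GABP, was called lower after siRNA (-0.72, adjusted p = 0.0703) and higher after shRNA (0.17, adjusted p = 0.0647), in each case opposite to the sign of ATP5J. In all, the exons of 27 members overlap those of another gene, 9 on the same strand and 22 on the opposite one. ATP5G1, ATP5G2 and ATP5G3 encode the same mature protein, subunit c of the proton-driven ring. After shRNA ATP5G3 fell by 0.20 (adjusted p = 0.0266), and ATP5G1 (0.08) and ATP5G2 (-0.04) were not called, while after siRNA the 3 genes had differences of 0.20, 0.38 and 0.18 in the order of their numbers.

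The difference between the knockdowns was tested for every gene over the 8 libraries together, with the change after siRNA subtracted from that after shRNA. The siRNA and shRNA libraries also differ in content, as given below, and this cannot be told apart from a difference between the knockdowns. The difference was called for 25 of the 78 members (32.1%), where 34.8% of the 17190 genes tested were called. Of the 25, 10 were higher after shRNA than after siRNA and 15 lower, against 15.1% and 19.7% of all genes, and the median over members was -0.01 (-0.02 over all genes). With library size as the only scaling 6 were higher and 22 lower, with the median of all genes at -0.11. The number called was 15 without siRNA control replicate 1, 14 without shCON replicate 1, 12 without shCON replicate 2, 11 without shETS1 replicate 1 and 14 without shETS1 replicate 2, and all 25 kept their sign in each of these fits. The share of all genes called in these 5 fits was 25.4, 23.3, 25.2, 24.4 and 26.4%.

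COX7A2 had the largest difference toward shRNA. Relative to their own controls its libraries were lower in ETS1 siRNA and higher in shETS1, and the difference was 1.00 (SE 0.15, adjusted p = 0.000789). Its relative COX7A2L stood at 103 and 96.7 CPM in siRNA control, 87.0 and 102 CPM in ETS1 siRNA, 87.4 and 93.9 CPM in shCON and 152 and 142 CPM in shETS1. The siRNA groups of COX7A2L overlapped and the shRNA groups did not, with a difference of 0.75 (SE 0.15, adjusted p = 0.00407). COX7C (0.72), NDUFA5 (0.55) and NDUFV3 (0.52) came next, with values near 0 after siRNA (0.13, -0.05 and 0.06). NDUFB1 (0.51), NDUFS1 (0.46), COX5B (0.39), UQCRB (0.38) and ATP5F1 (0.34) completed the 10.

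In the other direction COX6B2 had a difference of -1.94 (SE 0.44, adjusted p = 0.00865) and SDHC of -1.22 (SE 0.21, adjusted p = 0.00202). ATP5D, with both siRNA libraries above control and both shRNA libraries below, had -1.04 (SE 0.19, adjusted p = 0.00231). NDUFS7 showed the same pattern, from 19.5 and 26 CPM to 28.3 and 30.5 CPM after siRNA, and its difference was -0.89 (SE 0.19, adjusted p = 0.0058). NDUFA8 had -0.69, and the remaining 10 lay between -0.58 (NDUFS6) and -0.36 (SDHA). Among them were NDUFA6 (-0.45), NDUFB10 (-0.43), UQCR11 (-0.53), COX5A (-0.46), ATP5J (-0.54), ATP5G2 (-0.44) and ATP5G3 (-0.40).

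**Figure D3:**
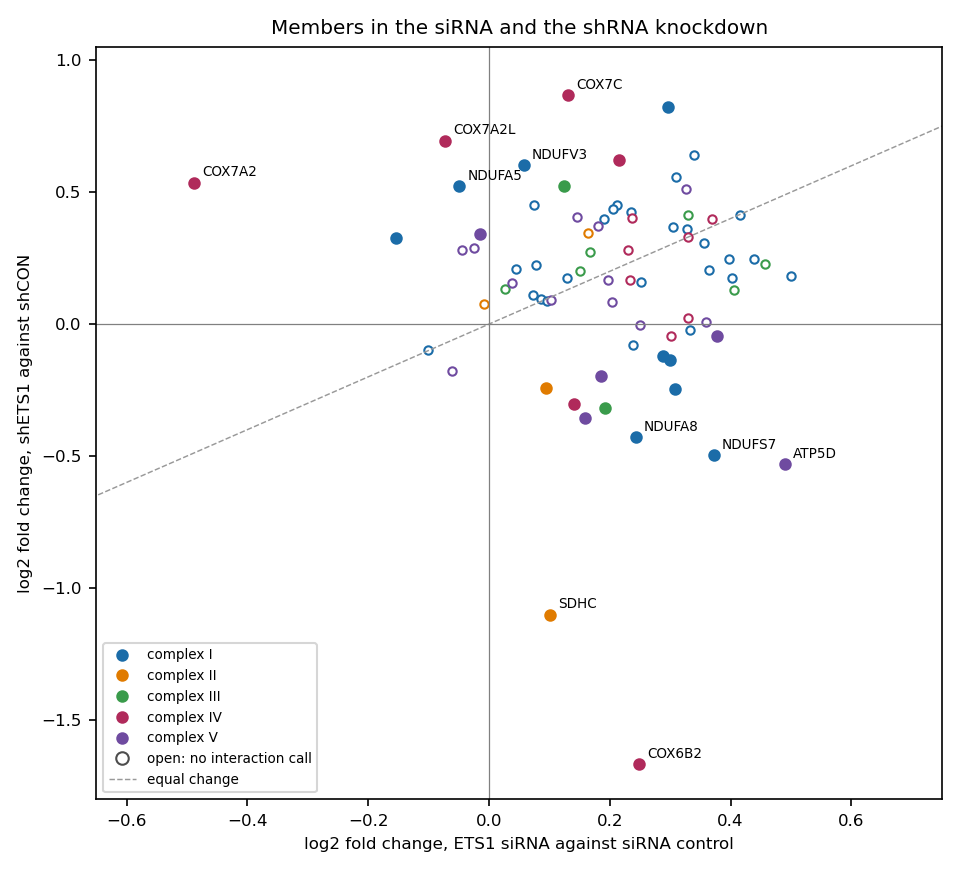
Log2 fold change of 77 members after ETS1 siRNA (horizontal axis) and in shETS1 (vertical axis), coloured by complex, filled where the difference between the knockdowns was called and with a dashed line of equal change. The 24 filled points lie off the line, with COX7A2 (-0.49 and 0.54) at the left and ATP5D (0.49 and -0.53), SDHC and COX6B2 below it.

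The change of a member also moved with the GC content of its transcript, as it did for genes at large, and after siRNA with its length. Members are short, with a median length of 875.5 bases against 3275 for all genes tested after siRNA. After siRNA the correlation of log2 fold change with GC content across 77 members with annotation was 0.54 (Pearson) and 0.58 (Spearman), and 0.35 and 0.40 across all 13478 genes with annotation. After shRNA it had the opposite sign, with -0.34 and -0.36 across members and -0.13 and -0.15 across 14035 genes. Genes share libraries and are not independent replicates, so these values are descriptions. With log2 length the members gave -0.40 and -0.47 after siRNA and 0.03 and -0.05 after shRNA. All genes with annotation gave -0.27 and -0.32 after siRNA and -0.066 and -0.095 after shRNA.

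All genes of up to 700 bases had a median of 0.20 after siRNA and 0.16 after shRNA, and the 32 members of that length had 0.30 and 0.26. The 20 members of over 700 and up to 1500 bases had 0.24 after siRNA, against 0.15 over all genes of that length. After shRNA they had 0.01, below the 0.08 of all such genes, and 7 rose and 6 fell. These are 35 and 30%, against 34 and 24.8% of all such genes. The 16 members of over 1500 and up to 3000 bases had 0.10 and 0.13, against 0.07 and 0.02. The 10 members of over 3000 bases had 0.10 and 0.42, against -0.08 and -0.07, and all 10 rose after shRNA, where 29.1% of all genes of that length did. These classes also rest on annotated lengths, which place small subunits such as UQCRB (8459 bases) and ATP5E (3610) in the longest class. Among members of over 55% GC, 17 of 17 lay above 0 after siRNA, as did 72.5% of all such genes, and 7 rose and 4 fell after shRNA (41.2 and 23.5%, against 23.2 and 38.9%). Of the 27 members of up to 45% GC, 21 rose and 2 fell after shRNA (77.8 and 7.41%, against 39.4 and 27.5% of all such genes). COX7C (40.7% GC), NDUFB1 (44.2%) and NDUFA5 (34.6%) were among those that rose, while NDUFS7 and ATP5D, with 66.9% and 69.5% GC, fell. Once the smooth trends on length and GC were removed from each library, the median of the members was 0.12 after siRNA and 0.15 after shRNA. With these offsets 43 members were called higher and 15 lower after shRNA, where 32.1% of all genes were higher and 30.1% lower, and 21 differences between the knockdowns were called (26.9%, against 36.7% of all genes). The part of length and GC in single members' changes was not tested.

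**Figure D4:**
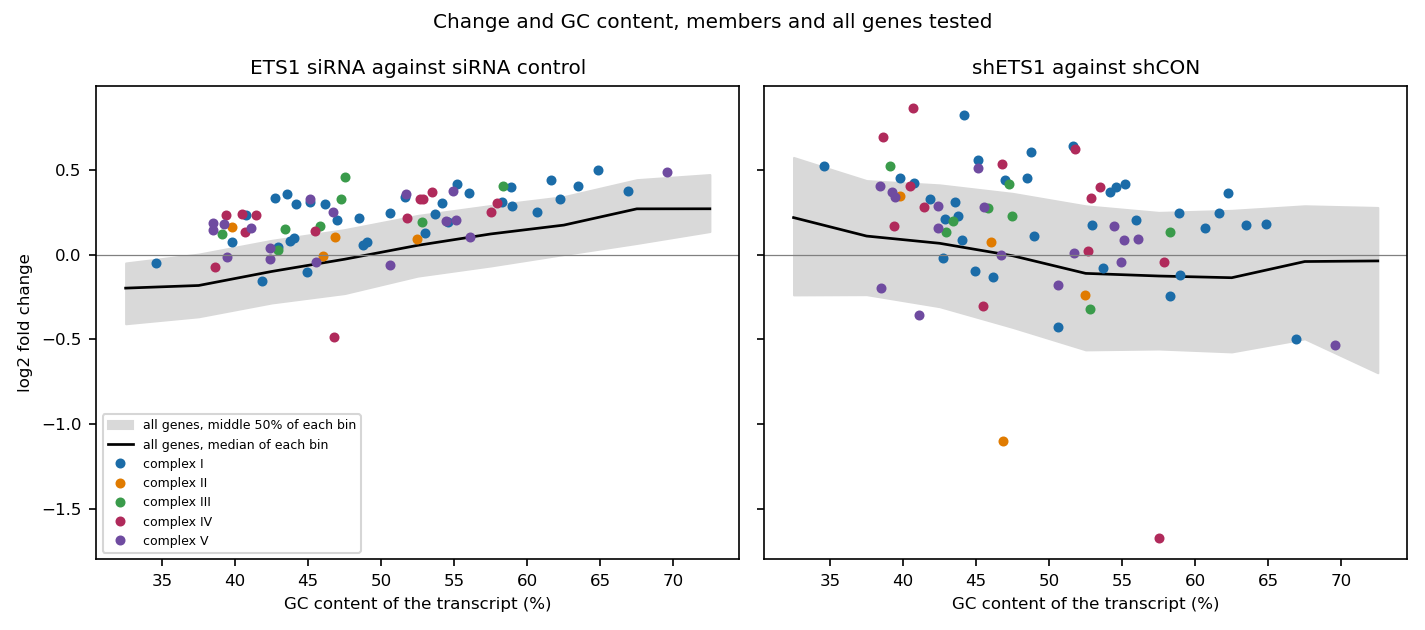
Log2 fold change (vertical axis) against the GC content of the transcript in percent (horizontal axis) for 76 members, coloured by complex, with the median (line) and middle 50% (band) of all genes in bins of GC. The line of all genes rises with GC after siRNA and falls up to 65% GC after shRNA, and the members' correlations over all 77 with annotation have the same signs (Spearman 0.58 and -0.36).

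Lists of neighbouring genes were counted in the same fits. The 13 subunits encoded by mitochondrial DNA had no count in the siRNA libraries and could be compared only in the stable lines, where 2 rose and 9 fell, with a median of -0.39. The median was -0.20 without shETS1 replicate 1 and -0.69 without shETS1 replicate 2. The rises and falls called are 15.4 and 69.2% of the 13, against 29.7 and 30.9% of all genes. Both shETS1 libraries lay above both shCON libraries for 1 of the 13 and below both for 8, and 4 overlapped. DESeq2 called 1 higher and 6 lower (7.69 and 46.2%, against 23.4 and 25.1% of all genes). MT-CO3 and MT-CO2, core subunits of complex IV, fell by 0.74 and 0.75, and MT-ND6, a complex I subunit on the other mitochondrial strand, rose by 0.53. The 13 took 0.755 and 0.706% of the counts in shCON and 0.398 and 0.545% in shETS1. Nuclear-encoded and mitochondrially encoded subunits thus had medians of opposite sign, 0.20 and -0.39. Of 45 assembly factors, which insert cofactors and join subunits, 15 rose and 9 fell after shRNA, with a median of 0.03. That is 33.3 and 20%, against 29.7 and 30.9% of all genes. With library size as the only scaling 6 rose and 16 fell (13.3 and 35.6%, against 22 and 38% of all genes).

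Of 13 citric acid cycle enzymes 2 rose and 7 fell after shRNA, with OGDH at -1.05, citrate synthase (CS) at -0.86 and MDH2 at -0.60. Of 17 glycolytic genes 2 rose and 12 fell, with HK2, PFKP and LDHA at -1.21, -0.80 and -0.67, and HK2 was also called lower after siRNA (-0.84, adjusted p = 0.0742). Mitochondrial ribosomal proteins gave 19 rises and 15 falls in 75 genes (25.3 and 20%, against 29.7 and 30.9% of all genes, median -0.01). Cytosolic ribosomal proteins, whose transcripts are also short, gave 61 rises and 7 falls in 79 genes (median 0.43), and all 18 genes of a proliferation list fell. After siRNA the medians were 0.05 for assembly factors, 0.11 for the citric acid cycle, 0.15 for glycolysis, 0.06 for mitochondrial and 0.17 for cytosolic ribosomal proteins and 0.14 for proliferation. With length offsets those of assembly factors and mitochondrial ribosomal proteins were -0.03 and -0.04.

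**Figure D5:**
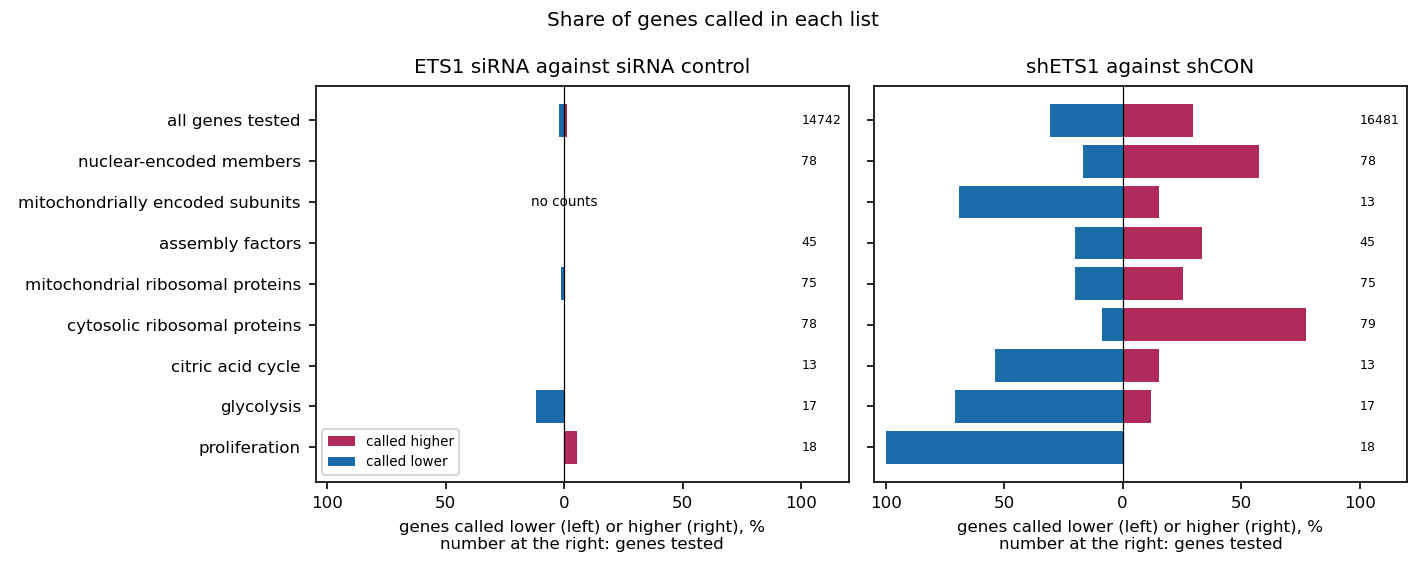
Percent of genes called lower (bars to the left) and higher (bars to the right) in each list after siRNA and shRNA, with the number of genes tested at the right. The 78 nuclear-encoded members were called higher more often than lower after shRNA (45 and 13), the 13 mitochondrially encoded subunits lower more often (9 and 2).

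Among 14 regulators of mitochondrial gene expression, 5 rose and 5 fell after shRNA (35.7% each, against 29.7 and 30.9% of all genes). PPARGC1A, the coactivator PGC-1 alpha, was at 1.83 and 1.5 CPM in shCON and at 12.8 and 13.4 CPM in shETS1, and it rose by 2.97 (SE 0.16, adjusted p = 1.23e-10). Its relatives PPARGC1B and PPRC1 fell by 1.22 and 1.06. The nuclear receptor ESRRA rose by 0.46, TFB2M, a factor for mitochondrial transcription, by 0.19, YY1 by 0.19 and GABPA by 0.17. MYC fell by 0.75, the mitochondrial RNA polymerase POLRMT by 0.32 and NRF1 by 0.23. After siRNA GABPA alone was called, and PPARGC1A was too low to be tested, at 0.151 to 0.349 CPM. Of 7 respiratory chain genes outside the name rule, the complex V subunits C14orf2 and USMG5 rose after shRNA by 0.28 and 0.23 and cytochrome c (CYCS) fell by 0.26. NDUFA4L2, a relative of NDUFA4 known as a target of hypoxia, was called higher after siRNA (1.21, adjusted p = 0.0524).

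Other measures moved with the stable knockdown as well. Structural RNAs took 5.61 and 6.63% of counts in shCON and 12.3 and 9.64% in shETS1, and at most 0.0034% in the siRNA libraries. The 3 fibroblast markers all rose in shETS1, with a summed level of 225 and 256 CPM in shCON and 2037 and 1937 CPM in shETS1, none of them at 0. In the siRNA libraries the same 3 genes summed to 22.1 to 30.6 CPM and none was called. Of the 7 keratinocyte markers 5 rose and 2 fell in shETS1, and of the 2 simple epithelial markers 1 fell and 1 was not called. The summed level of 18 proliferation genes was 3721 and 3729 CPM in shCON and 1905 and 1945 CPM in shETS1. Their part in the changes of the members was not tested. In bulk RNA, fewer cells that express a gene and less RNA of it per cell cannot be told apart.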

How the data were processed

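RNA was measured in 8 libraries of SCC25 cells, 2 for each of 4 groups, grouped by the labels. The values are counts of reads per gene symbol as deposited by the authors, raw and not normalized, with 1 table per knockdown (0 columns unused). The libraries were made with a TruSeq RNA kit. The submitters' processing notes name TopHat2 2.1.1, Bowtie2 2.2.6, featureCounts 1.5.0 and build GRCh37. Whether counting used strand, and how it handled reads that match several places, is not given in the sources used here, so that near-identical copies, such as the 91 pseudogene names (at most 37 counts in a library), can share reads with members.

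ETS1 siRNA was compared with siRNA control and shETS1 with shCON on whole tables of 56638 symbols, by the quasi-likelihood F-test (two-sided) in edgeR 4.0.16 under R 4.3.3. Libraries were scaled by TMM, genes kept by filterByExpr, p-values adjusted by Benjamini-Hochberg over all genes tested, and genes called at an adjusted p under 0.1. The interaction, the change after shRNA less that after siRNA, came from 1 fit of the 8 libraries. Standard errors are the absolute fold change over the root of F. The common dispersion was 0.0192 for the siRNA and 0.00402 for the shRNA libraries, which gives wider errors after siRNA. Replicates of a group differed by 6.23 to 23.2 times the sampling variance, so that no library was a copy of another. The fit was tested on simulated data.

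The members, the gene lists, the tests and the motifs were chosen with earlier results of these data known. Named members were, in each knockdown and complex, the called members with the largest rise and fall (or the extremes where none was called), all of complex II, paralogues, the 5 largest interactions in each direction, the highest level per kilobase and those at the count floor. Outside the members, ETS1, called regulators and called chain genes outside the name rule were named, with up to 3 genes of other lists. Other members given with values were chosen after these were seen. A member counted in all totals is not reported here by name or drawn in the figures.

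Coordinates, lengths and GC came from GENCODE v44 on GRCh37, where 33514 symbols matched by current and 1838 by older name, and promoters from RefSeq. Alternatives were other scalings, filters and thresholds, DESeq2 1.42.0, a replicate block, length and GC offsets, 1 fit of all libraries and leaving out each library.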

Additional observations from a re-analysis of the deposited data

Results flagged for a closer look

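The effects of the siRNA and the shRNA knockdown differed by the test of the difference itself (edgeR, adjusted p under 0.1) for 25 members, and the named ones are listed with their values, each as shRNA effect minus siRNA effect on the log2 scale. In complex I NDUFB1 had 0.51, NDUFS1 0.46, NDUFV3 0.52 and NDUFA5 0.55, while NDUFS7 had -0.89 and NDUFA8 -0.69. In complex II SDHC had -1.22 and SDHA -0.36. In complex III UQCRB had 0.38 and UQCR11 -0.53. In complex IV COX7C had 0.72, COX7A2 1.00, COX7A2L 0.75 and COX6B2 -1.94. In complex V ATP5D had -1.04, ATP5G2 -0.44 and ATP5G3 -0.40. ETS1 itself had 1.23, since it fell by 4.13 after siRNA and by 2.89 after shRNA. The knockdowns also differ in duration, delivery and control, and their libraries in content, which cannot be told apart from each other. Mitochondrially encoded subunits had no count in the siRNA libraries and took 0.398 to 0.755% of counts in the shRNA libraries. Structural RNAs took at most 0.0034% in the siRNA libraries and 5.61 to 12.3% in the shRNA libraries. With 2 libraries a group, no group was large enough for a search for single deviating samples.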

How the results depend on the processing

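The number of members called after siRNA was 0 and became 4 with no filter on low counts, 2 with at least 10 counts in every library, 2 among protein-coding genes with at least 1 TPM, 4 with DESeq2, 1 with length offsets, 1 with length and GC offsets and 10 with all 8 libraries in 1 fit. The share of all genes called in these 7 fits was 5.32, 5.34, 6.64, 5.41, 3.36, 4.65 and 12.6%, in the same order. Leaving out 1 library gave 0 to 11, with 0.476 to 9.61% of all genes called, and a median of the members of 0.11 to 0.33. After shRNA the count of 58 stayed within 41 to 64 (52.6 to 82.1% of members, against 29.7 to 70.1% of all genes), and the median of the members was 0.076 with library size only. The number of interaction calls, 25, became 15 at an adjusted p under 0.05 (27.3% of all genes) and 11 to 29 on leaving out 1 library. With the replicate block it was 15, and 11 with length offsets and the replicate block (24.8 and 27.0% of all genes), while the block gave 0 calls after siRNA and 51 after shRNA (0.658 and 55.7%). The groups share only replicate numbers, and differences between same-numbered replicates correlated across genes at -0.54 (siRNA) and -0.20 (shRNA). A crossed pairing of the control libraries, chosen after seeing the data along with the length and GC offsets, gave 23, 64 and 34 calls, with 22.0, 66.3 and 43.4% of all genes. The median interaction lay above 0 in 10 of 20 alternatives (-0.14 to 0.09). For the named genes 859 values kept direction and call, 72 lost and 31 gained the call, and 24 changed sign, each for a gene not called in that comparison. After siRNA these were NDUFS1 (0.053 with length offsets and 0.049 with the block added, 0.081 and 0.078 with length and GC offsets), SDHB (0.00099 with no filter, -0.073 to 0.056 on leaving out 1 library), UQCRC2 (-0.054 and -0.054 with length offsets, -0.024 to 0.078 on leaving out 1 library), ATP5B (-0.12 to 0.0016 on leaving out 1 library), SDHC (-0.024 and -0.025 with length offsets) and COX7A2L (0.028 and 0.028 with length and GC offsets, -0.20 to 0.044 on leaving out 1 library). After shRNA they were SDHB (-0.050 with library size only, -0.062 and -0.063 with length and GC offsets), ATP5G1 (-0.043 with library size only) and ATP5G2 (0.0056 and 0.0066 with length and GC offsets, -0.13 to 0.038 on leaving out 1 library). The cause of these changes was not tested. Of the 58 members called after shRNA, ATP5C1 and NDUFA4 changed sign with length and GC offsets and the others kept it in every alternative that tested them.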
